A study of Homo sapiens with 21 samples.

Results

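The proteasome genes described here are the protein-coding genes whose symbol is PSMA, PSMB, PSMC, PSMD, PSME, PSMF or PSMG followed by a number, with a mean of at least 1 FPKM (the count of fragments divided by the length of the gene and the size of the library) over 21 RNA-seq libraries. Among the 58735 genes measured, 49 fitted by symbol and biotype, and 46 of these reached the minimum. They comprised 6 genes of the core alpha ring, 3 constitutive catalytic and 4 other genes of the beta rings, and 3 inducible catalytic genes. The regulatory cap was represented by 6 ATPases, 3 other base genes and 8 lid genes. There were also 5 genes of other activators and an inhibitor, and 4 core and 3 base assembly chaperones. The remaining gene, PSMC3IP, was taken by its symbol only: it encodes a recombination cofactor named after its binding to PSMC3 and is no proteasome subunit, which leaves 45 proteasome genes. Below the minimum lay PSMA2 of the alpha ring (0.725 FPKM), the thymic catalytic subunit PSMB11 (0.0229 FPKM) and the testis-specific alpha subunit PSMA8 (0.00831 FPKM). Just inside it were PSMG4 (1.15 FPKM), PSMB9 (1.26 FPKM) and PSMC3IP (1.30 FPKM). PSMA6, PSMB9 and PSMC3IP reached it through the groups with DES: over the 4 groups without DES they averaged 0.823, 0.844 and 0.945 FPKM.

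The libraries were made from poly-A RNA of MDA-MB-453, a human breast cancer cell line with luminal features, which is classified as estrogen receptor negative. Each of 7 groups had 3 libraries: an untreated control, calcium (10 mM), cadmium (10 μM), GSK4716 (5 μM, an agonist of the orphan nuclear receptor ESRRB), DES (diethylstilbestrol, 10 μM, used as an ESRRB antagonist), DES with calcium and DES with cadmium. Treatments lasted 24 h, and in the combined groups DES was given 3 h ahead of the metal. Calcium and GSK4716 were given in medium without serum, and cadmium in medium with a little charcoal-stripped serum. A single control group was labelled, so medium and treatment cannot be told apart in at least 1 comparison. The labels do not say whether the libraries of a group came from separate cultures, so the p-values measure the spread between these libraries, which may be technical.

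Libraries held 14435925 to 28424805 fragments assigned to genes. The FPKM scaling implied a library size of 0.693 to 1.15 times that number, and the lowest ratio belonged to DES with cadmium replicate 1, whose FPKM values summed to 476599 against 268326 to 364778 in the other libraries. The luminal markers KRT8, KRT18, EPCAM, FOXA1, GATA3, ERBB2 and SPDEF summed to 974 to 2421 FPKM per library. Among 9 markers of leukocytes, endothelium, fibroblasts and basal epithelium, 8 summed to at most 1.95 FPKM in any library. The other, COL1A1, had 10.51 to 12.01 FPKM in control and 14.02 to 17.1 FPKM in calcium. With cadmium it had 9.97 to 14.5 FPKM, and with GSK4716 9.74 to 11.97 FPKM. It had 12.5, 15.9 and 32.7 FPKM in DES, 9.34 to 16.7 FPKM in DES with calcium and 9.69, 23.96 and 28.3 FPKM in DES with cadmium. Its part in the results was not tested. Mitochondrial genes took 7.70% to 8.19% of fragments in the control, 4.88% to 7.55% in calcium, 7.36% to 9.75% in cadmium and 8.20% to 8.84% in GSK4716. In the groups with DES they took 1.97% to 5.31%, and the part of this shift in the results below was not tested.

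The proteasome is the barrel-shaped protease that degrades proteins marked with ubiquitin. Its core stacks alpha rings, which gate the entrance, around beta rings that hold the cutting sites. The regulatory cap recognises ubiquitin chains, removes them and unfolds the substrate with a ring of ATPases. Cells exposed to interferon replace the constitutive catalytic subunits with inducible ones, which form the immunoproteasome and favour peptides for antigen presentation. When proteasome activity falls short, the transcription factor NFE2L1 raises many subunit genes together, acting through antioxidant response elements in their promoters.

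Levels of the subunits differed widely even within a ring. On the FPKM scale PSMA7 had the highest mean over all libraries, 160 FPKM, followed by PSMB4 (132 FPKM), PSMB3 (115 FPKM) and the ATPase PSMC5 (108 FPKM). The alpha ring spanned the widest range, from PSMA7 down to PSMA1 (4.04 FPKM) and PSMA6 (1.45 FPKM). Catalytic genes ranged from PSMB6 (40.3 FPKM) to PSMB7 (82.4 FPKM), ATPases from PSMC1 (12.98 FPKM) to PSMC5, and lid genes from PSMD6 (9.35 FPKM) to PSMD8 (66.5 FPKM). The inducible catalytic genes were low, with means of 5.75 FPKM for PSMB10, 4.89 FPKM for PSMB8 and 1.26 FPKM for PSMB9. Of the activators PSME1 was the highest (88.1 FPKM) and PSME4 the lowest (11.5 FPKM). The assembly chaperones lay between 1.15 FPKM (PSMG4) and 27.4 FPKM (PSMD5).

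Part of these genes share exons with another gene, which makes their levels uncertain. By the GENCODE annotation of GRCh38, 22 of the 46 genes shared exon bases with another gene of the table, and 10 shared over 10%. PSMC1 shared 76.1% of its exon bases with NRDE2 on the opposite strand, and PSMB10 shared 39.4% with AC040162.1 on its own strand. PSMA1 shared 26.7% with AC018523.2 and PSMA6 14.1% with AL121594.1, both on the same strand and with means of 0.00208 and 0.0260 FPKM. Other partners are at higher levels: PSMC3IP shared 30.1% with MLX (mean 10.05 FPKM) and PSMC5 15.3% with FTSJ3 (mean 34.3 FPKM), both on the opposite strand. How fragments in shared exons were assigned is not given in the sources used here, and whether strand was used is stated in more than 1 way. Processed copies add to this: the table lists 13 PSMC1 pseudogenes, the highest with a mean of 2.68 FPKM, and 4 PSMA6 pseudogenes, the highest with 2.25 FPKM. The 46 genes lie on 17 chromosomes, and only a pair of neighbours on chromosome 14 (PSME1 and PSME2, 4394 bases apart) and a pair on chromosome 6 (PSMB8 and PSMB9, whose spans overlap by 568 bases) lay within 50000 bases of each other.

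Promoter windows from RefSeq (GRCh38.p14, 250 bases before to 50 after the start) were matched by symbol for 40 of the 46 genes. The antioxidant response element core, TGACNNNGC, searched on both strands, was present in 13 of these 40 windows (32.5%) and in 13.6% of 27305 windows of all genes. The ERR element TNAAGGTCA, which estrogen-related receptors bind, was present in 1 of the 40 (2.5%) and in 0.963% of all windows, and no window held both. A match describes letters in a window and is not a binding site. In at least 1 of 3 pairs of groups, 24 of the 46 genes (52.2%) and 28.1% of all genes tested were higher with DES. Of the 13 genes with the antioxidant core, 7 were higher in at least 1 of these pairs and 6 were not. The sequences below show the match, in capitals, for some of these: PSMD9, PSME2, PSMG2, PSMB3 and PSMG1, which were among the 7, PSMD3 and PSME4, which were among the 6, and PSMC3IP, the only one with the ERR element. All matches are upstream of the RefSeq start of their window and read 5′ to 3′ on the strand of the gene. Those of PSMG2, PSME2 and PSMG1 lie inside the span of the gene that the FPKM values were given for. Capitals starting with GC mark a core on the other strand. PSMD9 and PSMD3 each held a second core, which is not shown.
PSMD9, chr12:121888658-121888726, plus strand: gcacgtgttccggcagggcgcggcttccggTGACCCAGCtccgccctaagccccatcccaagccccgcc
PSME2, chr14:24146747-24146815, minus strand: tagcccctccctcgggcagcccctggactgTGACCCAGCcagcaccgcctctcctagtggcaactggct
PSMG2, chr18:12658669-12658737, plus strand: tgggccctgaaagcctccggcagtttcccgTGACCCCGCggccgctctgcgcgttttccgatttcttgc
PSMB3, chr17:38752607-38752675, plus strand: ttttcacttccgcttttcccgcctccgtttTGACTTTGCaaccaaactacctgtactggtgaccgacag
PSMG1, chr21:39183596-39183664, minus strand: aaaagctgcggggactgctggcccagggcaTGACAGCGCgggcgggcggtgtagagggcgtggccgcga
PSMD3, chr17:39980740-39980806, plus strand: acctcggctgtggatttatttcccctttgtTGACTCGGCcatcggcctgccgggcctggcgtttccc
PSME4, chr2:53970994-53971057, minus strand: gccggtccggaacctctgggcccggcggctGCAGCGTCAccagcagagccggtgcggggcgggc
PSMC3IP, chr17:42577981-42578049, minus strand: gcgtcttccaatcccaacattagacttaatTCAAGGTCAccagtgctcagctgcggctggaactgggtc

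Taken over all 46 genes, the share of a library's fragments was higher in the groups with DES. It was 0.525%, 0.537% and 0.511% in the control libraries and 0.675%, 0.632% and 0.532% with DES. With calcium it was 0.533%, 0.540% and 0.454%, and with DES and calcium 0.680%, 0.666% and 0.597%. With cadmium it was 0.528%, 0.448% and 0.420%, and with DES and cadmium 0.697%, 0.594% and 0.524%. GSK4716 had 0.482%, 0.444% and 0.451%. The shares with DES and calcium lay above those with calcium in every library, those with DES overlapped the control (0.532% against 0.537%), and those with DES and cadmium overlapped cadmium. This share does not depend on how the FPKM values were scaled, and it is given as a description.

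**Figure D1:**
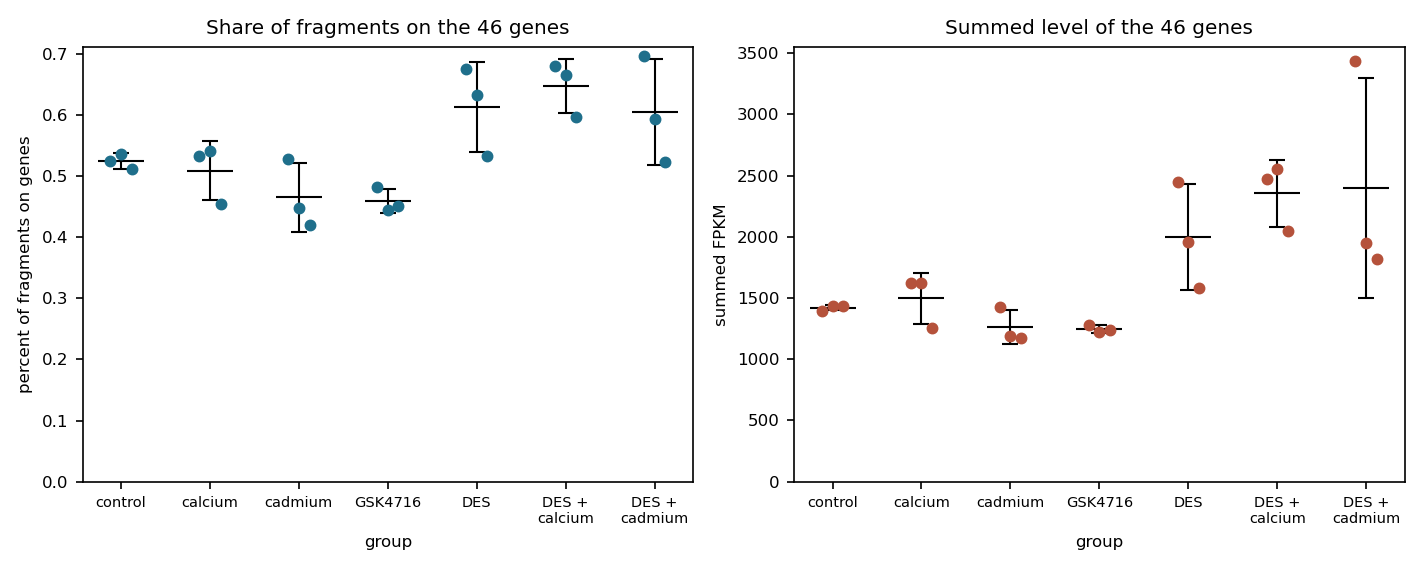
Left, percent of the fragments on genes that fell on the 46 genes, and right, their summed FPKM, for each of the 7 groups on the x axis. Points are the 3 libraries of a group, and black lines the mean and SD. The share with DES and calcium runs from 0.597% to 0.680%, above every calcium library, and the summed FPKM of DES with cadmium replicate 1 stands above the other libraries.

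**Figure D2:**
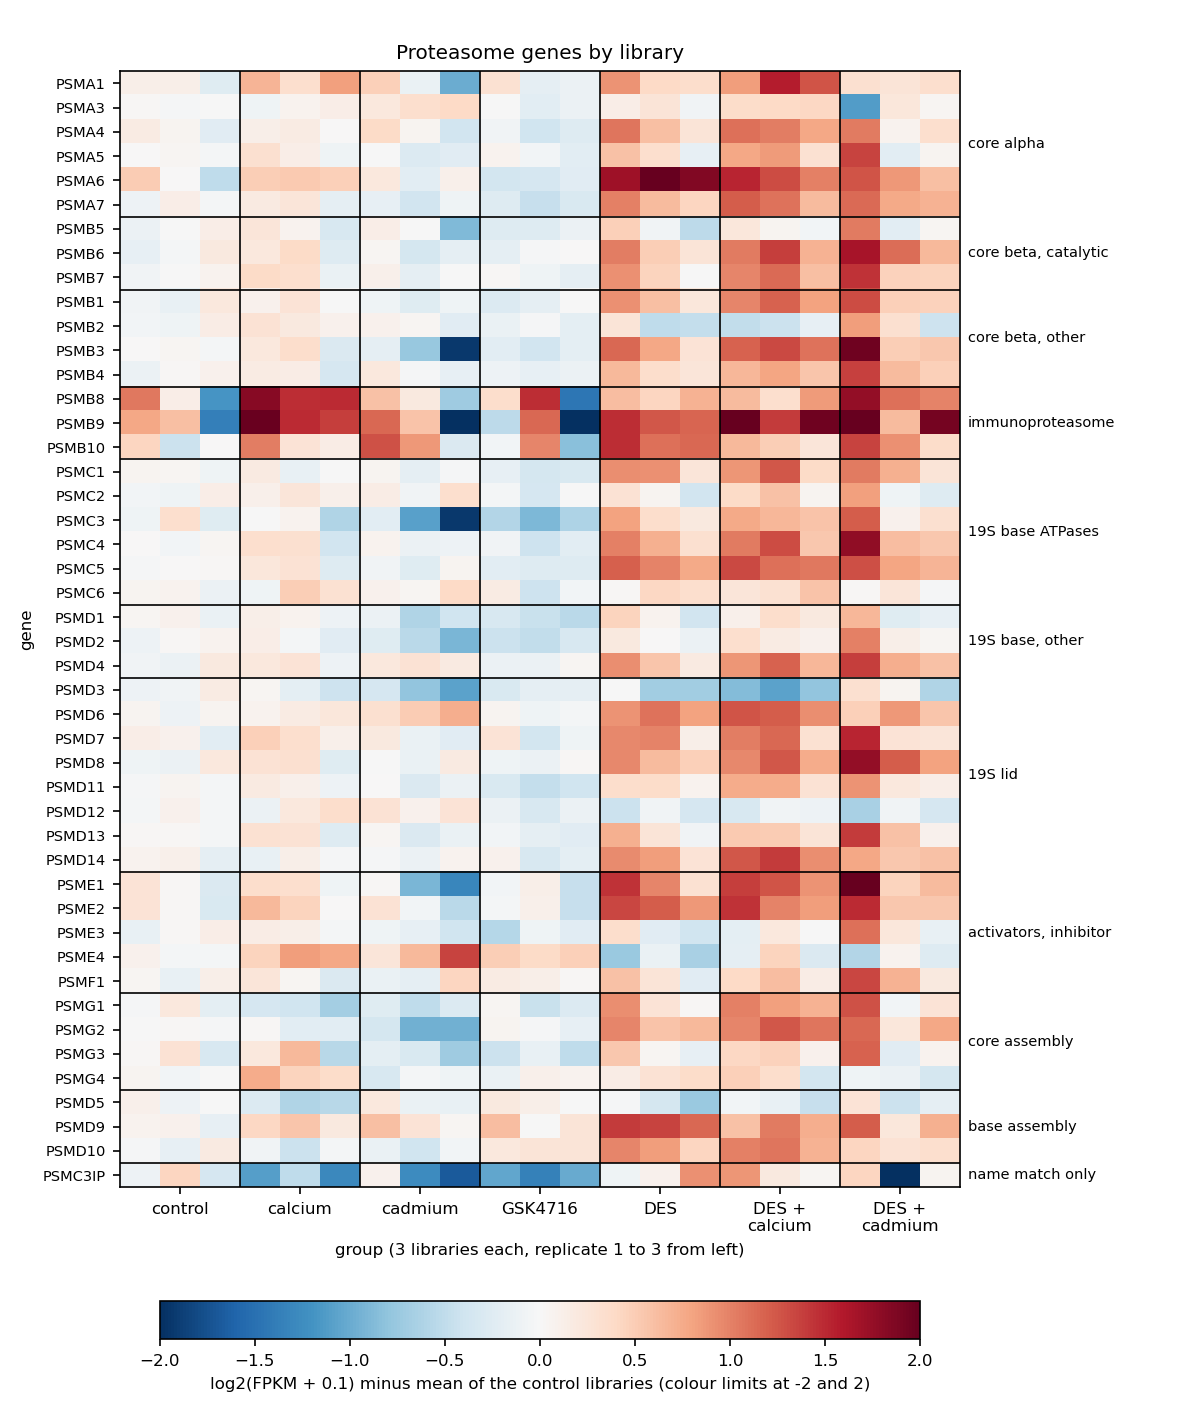
Each row is one of the 46 genes, grouped by role, and each column one of the 21 libraries. Colour gives log2(FPKM + 0.1) minus the mean of the control libraries, with colours held at -2 and 2, so that red is above and blue below the control. Most rows turn red in the groups with DES, and PSME4 turns red with calcium, cadmium and GSK4716 instead.

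To ask how DES alone changed these genes, its libraries were compared with the control by limma on log2(FPKM + 0.1), with p-values adjusted over all 14686 genes tested. Called genes were 2 of 6 in the alpha ring, 3 of 6 ATPases, 3 of 8 lid genes, 1 of 5 activators, 3 of 7 assembly chaperones and 1 of 3 inducible catalytic genes, all higher with DES. Of the 46 genes 13 rose, 28.3%, while 16.7% of all genes tested rose. None fell, while 12.9% of all genes fell. The median difference was 0.50 on the log2 scale over the 46 genes and 0.05 over all genes, and 38 of the 46 differences were above 0. Without the 3 genes that reached the minimum through the groups with DES, 12 of 43 rose (27.9%) and the median was 0.45.

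In the core particle, 2 of the 6 alpha genes rose with DES. PSMA7 had 114, 134 and 118 FPKM in the control and 245, 189 and 164 FPKM with DES. Every DES library lay above every control library, and the difference was 0.69 ± 0.20 (log2, SE, adjusted p = 0.0402). PSMA6, which was a member through its DES values and so had to differ, had 1.12, 0.764 and 0.502 FPKM in the control and 2.69, 4.22 and 2.99 FPKM with DES, a difference of 1.96 ± 0.34 (adjusted p = 0.00723), and its groups did not overlap either. None of the 3 constitutive catalytic genes passed the test. PSMB6 had 25.4, 27.8 and 32.8 FPKM in the control and 57.8, 40.2 and 33.9 FPKM with DES, above the control in every library but past no threshold (adjusted p = 0.0885). PSMB7, with 59.7, 62.3 and 65.8 FPKM in control and 118, 85.03 and 62.3 FPKM in DES, and PSMB5, with 53.6, 57.9 and 64.4 FPKM in control and 81.6, 55.96 and 40.6 FPKM in DES, overlapped between the groups. The other 4 beta genes also gave adjusted p-values above the threshold of 0.05: PSMB4, the highest of them, had 98.3, 108 and 113 FPKM in the control and 167, 135 and 125 FPKM with DES (adjusted p = 0.113).

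In the regulatory cap, 3 of 6 ATPases and 3 of 8 lid genes rose with DES. PSMC5 had 74.4, 75.6 and 76.5 FPKM in the control and 172, 150 and 127 FPKM with DES, a difference of 0.98 ± 0.17 (adjusted p = 0.00717). FTSJ3, which shares exon bases with PSMC5, averaged 33.01 FPKM in control and 38.5 FPKM in DES, and its part in the PSMC5 values was not tested. The other 2 ATPases were PSMC4, by 0.68 ± 0.20, and PSMC1, by 0.69 ± 0.21. PSMD8, the lid gene with the highest level, had 42.96, 42.2 and 52.8 FPKM in the control and 89.3, 70.6 and 63.6 FPKM with DES, a difference of 0.69 ± 0.18 (adjusted p = 0.0311). PSMD6 differed by 0.93 ± 0.15, and PSMD14, the enzyme that removes ubiquitin chains, by 0.68 ± 0.21. For all 6 of these genes, picked as called higher, the DES libraries lay above all control libraries, a separation not counted over all genes. The scaffold PSMD2 did not follow them, with 70.4, 77.03 and 79.6 FPKM in the control and 86.3, 75.7 and 69.8 FPKM with DES (adjusted p = 0.911). The lid gene PSMD3 was on the other side, with 59.4, 60.2 and 71.5 FPKM in control and 62.98, 39.1 and 39.1 FPKM in DES and a difference of -0.47 ± 0.22 that did not pass (adjusted p = 0.151).

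Among the activators PSME2, which pairs with PSME1 in the interferon-inducible cap, rose by 1.14 ± 0.21 (adjusted p = 0.00859). PSME1 had 69.9, 58.5 and 46.99 FPKM in the control and 158, 114 and 71.00 FPKM with DES (adjusted p = 0.0639). PSME4, a nuclear activator that works without ubiquitin, gave the lowest difference of all members. It had 10.2, 9.32 and 9.35 FPKM in the control and 5.73, 8.73 and 6.11 FPKM with DES, with every DES library below the control, but its difference of -0.51 ± 0.20 did not pass (adjusted p = 0.0912). Of the assembly chaperones, PSMG2 of the core rose from 13.3, 13.6 and 13.2 to 26.4, 19.98 and 21.1 FPKM, by 0.73 ± 0.15 (adjusted p = 0.0138). The base chaperone PSMD9 rose from 0.896, 0.912 and 0.752 to 2.40, 2.32 and 2.02 FPKM, by 1.30 ± 0.23 (adjusted p = 0.00825), and PSMD10 rose by 0.75 ± 0.19. PSMG3, with 17.7, 21.3 and 13.9 FPKM in control and 25.2, 17.8 and 15.6 FPKM in DES, and PSMD5, with 32.3, 28.1 and 30.01 FPKM in control and 29.5, 23.6 and 17.9 FPKM in DES, overlapped between the groups.

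The calls depended on the libraries used, on the scaling and on the filter. Without a filter on low values 3 were higher (PSMC5, PSMD6 and PSMD9) and none lower. Without DES replicate 1 there were 11 higher and 3 lower (PSMB2, PSMD3 and PSMD5). The count was 6 without control replicate 1 or without control replicate 2, 8 without DES replicate 2 (7 higher and PSME4 lower) and 21 without DES replicate 3. Scaling by total fragments moved the median of all genes from 0.05 to -0.12, left the members 0.45 above it as before, and gave 11 higher and 2 lower (PSMD3 and PSMD5), quantile normalization gave 8 higher and 4 lower (also PSMD2 and PSMD12), and limma-voom on recovered fragments 11 higher and 3 lower (PSMD3, PSMD5 and PSME4).

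The DES difference was also taken in the presence of each metal, in pairs of groups that share no library with the pair above or with each other. These comparisons were chosen after seeing the data. In DES with calcium against calcium, 19 of the 46 genes rose (41.3%, against 18.5% of all genes) and 3 fell (6.52%, against 16.5% of all genes). The median difference was 0.57 over the members and -0.01 over all genes. Without the same 3 genes 18 of 43 rose (41.9%) and the median was 0.54. In DES with cadmium against cadmium, 4 rose (8.70%, against 4.76% of all genes) and none fell, while 5.13% of all genes did. There the median difference was 0.68 over the members and -0.08 over all genes, but it was 0.32 and 0.02 under quantile normalization and 0.45 and -0.01 without DES with cadmium replicate 1. Without the same 3 genes it was 0.67.

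**Figure D3:**
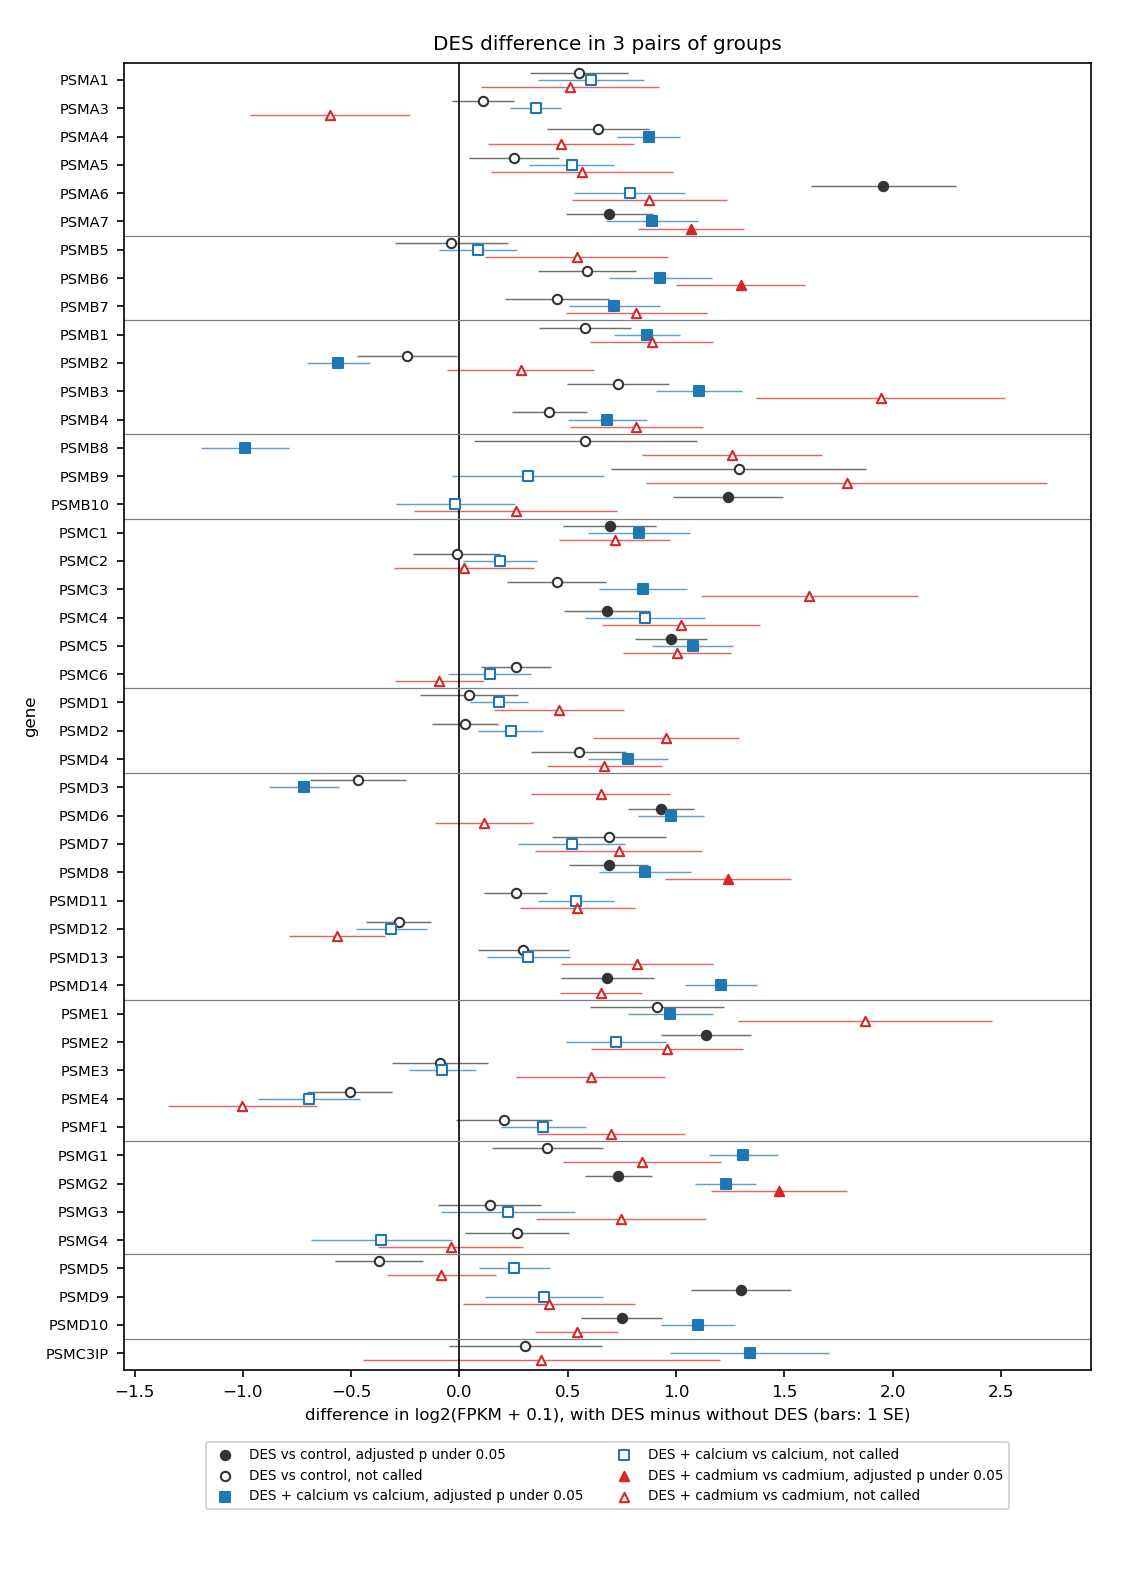
Difference in log2(FPKM + 0.1) for each of the 46 genes, with DES minus without DES, in 3 pairs of groups: DES against control (circles), DES with calcium against calcium (squares) and DES with cadmium against cadmium (triangles). Filled symbols passed an adjusted p of 0.05 and bars are 1 SE. Of the 46 genes, 33 lie to the right of 0 in all 3 pairs, and PSMD12 and PSME4 lie to the left in all 3. The 33 include PSMA6, PSMB9 and PSMC3IP, which reached the minimum through the groups with DES.

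In these 3 pairs 33 of the 46 genes (71.7%) had a difference above 0 each time, against 29.0% of all genes tested. The 33 include PSMA6, PSMB9 and PSMC3IP, which reached the minimum through the groups with DES, so the rule favoured their direction. In all 3 pairs 2 genes (4.35%), PSMD12 and PSME4, had a difference below 0, against 29.7% of all genes. PSMA7, PSMD8 and PSMG2 rose in all 3 pairs (6.52% of the members, against 1.78% of all genes). The 8 genes that rose both with DES alone and with DES and calcium were PSMA7, PSMC1, PSMC5, PSMD6, PSMD8, PSMD10, PSMD14 and PSMG2, which is 61.5% of the first list and 42.1% of the second. Over all genes these shares were 50.2% and 45.2%.

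With calcium present, all 3 non-catalytic beta genes other than PSMB2 and 2 of the 3 catalytic genes rose with DES. PSMB4 had 119, 117 and 83.7 FPKM with calcium and 169, 184 and 156 FPKM with DES and calcium, a difference of 0.68 ± 0.18 (adjusted p = 0.0289). PSMB3 had 95.9, 105 and 67.6 FPKM in calcium and 188, 206 and 176 FPKM in DES with calcium, a difference of 1.11 ± 0.20 (adjusted p = 0.00807). For both genes the groups did not overlap. PSMB7 had 81.2, 78.97 and 57.03 FPKM with calcium and 124, 138 and 95.4 FPKM with DES and calcium, a difference of 0.72 ± 0.21 (adjusted p = 0.0380). PSMB6 differed by 0.93 ± 0.24, with 32.98, 37.01 and 23.8 FPKM in calcium and 58.6, 74.4 and 46.2 FPKM in DES with calcium. PSMB5 again did not pass, with 69.04, 61.1 and 46.9 FPKM with calcium and 68.7, 60.9 and 56.6 FPKM with DES and calcium (adjusted p = 0.732).

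Of the 4 core chaperones, PSMG1 and PSMG2 rose in this pair. PSMG1 had 8.66, 8.35 and 6.82 FPKM with calcium and 22.2, 19.5 and 17.8 FPKM with DES and calcium, a difference of 1.31 ± 0.16 (adjusted p = 0.00287). PSMG2 had 13.5, 11.6 and 11.5 FPKM in calcium and 26.3, 31.9 and 28.1 FPKM in DES with calcium, a difference of 1.23 ± 0.14. In the cap, 3 ATPases (PSMC1, PSMC3 and PSMC5), the ubiquitin receptor PSMD4 and 3 lid genes (PSMD6, PSMD8 and PSMD14) rose, by 0.78 to 1.21. PSMC5 had 87.9, 92.03 and 63.01 FPKM with calcium and 188, 163 and 157 FPKM with DES and calcium, and PSMD8 56.2, 56.9 and 38.5 FPKM in calcium and 88.7, 108 and 76.6 FPKM in DES with calcium. PSMA7 had 138, 144 and 107 FPKM with calcium and 281, 257 and 187 FPKM with DES and calcium, with no overlap. The other risers were PSMA4, PSMB1, PSMD10, PSME1 and PSMC3IP, which is no proteasome gene: it had 0.644, 1.02 and 0.555 FPKM with calcium and 2.85, 1.74 and 1.54 FPKM with DES and calcium, a difference of 1.34 ± 0.37. PSMC3IP reached the minimum through the groups with DES, so the rule favoured its rise. The exon-sharing partners MLX, of PSMC3IP, and FTSJ3, of PSMC5, averaged 8.95 and 30.1 FPKM in calcium and 13.6 and 42.6 FPKM in DES with calcium, and their part in these rises was not tested.

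The 3 genes that fell were PSMB8, PSMD3 and PSMB2. PSMD3 had 65.1, 55.6 and 47.6 FPKM with calcium and 34.7, 30.1 and 36.9 FPKM with DES and calcium, a difference of -0.72 ± 0.16 (adjusted p = 0.0169). PSMB2, a core beta gene without catalytic activity, differed by -0.56 ± 0.14, and PSMB8 is described with the inducible subunits. The 22 calls became 11 without DES with calcium replicate 1, 12 without DES with calcium replicate 2 and 14 without calcium replicate 1. The PSMB8 and PSMB2 calls were lost with all 7 groups in a single fit (adjusted p = 0.187 and adjusted p = 0.0874). Without a filter on low values 3 members were called higher and none lower. The calls of PSMB2 and PSMD3 were also lost without DES with calcium replicate 1 or 2 and without calcium replicate 1 or 2.

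With cadmium present the genes that rose with DES were PSMA7, PSMB6, PSMD8 and PSMG2. PSMB6 had 29.3, 22.4 and 25.2 FPKM with cadmium and 89.6, 62.02 and 44.5 FPKM with DES and cadmium, a difference of 1.30 ± 0.30 (adjusted p = 0.0448). PSMG2 had 10.45, 6.84 and 6.82 FPKM in cadmium and 29.9, 15.7 and 22.96 FPKM in DES with cadmium, a difference of 1.48 ± 0.32 (adjusted p = 0.0413). The groups did not overlap for either gene. PSMA7, with 109, 93.6 and 115 FPKM in cadmium and 268, 206 and 197 FPKM in DES with cadmium, differed by 1.07 ± 0.24, and PSMD8, with 45.6, 41.8 and 51.9 FPKM in cadmium and 154, 106 and 79.6 FPKM in DES with cadmium, by 1.24 ± 0.29. PSMB3 and PSME1 had larger differences that did not pass. PSMB3 had 73.2, 48.7 and 21.6 FPKM with cadmium and 318, 117 and 119 FPKM with DES and cadmium, a difference of 1.94 ± 0.58 (adjusted p = 0.0745). PSME1 had 58.4, 30.7 and 23.2 FPKM in cadmium and 292, 78.7 and 89.8 FPKM in DES with cadmium, a difference of 1.87 ± 0.59 (adjusted p = 0.0841). The groups did not overlap for either, replicate 1 of DES with cadmium was far above the other libraries, and replicate 3 of cadmium was the lowest. At the other end stood PSME4, with 11.3, 15.1 and 24.8 FPKM with cadmium and 6.38, 10.1 and 8.001 FPKM with DES and cadmium (-1.002 ± 0.35, adjusted p = 0.104), and PSMA3, with 39.6, 43.3 and 45.2 FPKM in cadmium and 15.8, 40.03 and 35.1 FPKM in DES with cadmium (-0.60 ± 0.37, adjusted p = 0.297). The 4 calls became 0 or 1 when any of the 6 libraries was left out, 0 without DES with cadmium replicate 1, 0 with the replicate number as a block, and 26 (24 higher and 2 lower) when all 7 groups shared an estimate of the spread. Quantile normalization gave 1 higher (PSMG2) and 1 lower (PSMD12), and scaling by total fragments 1 higher, with the median of all genes moved from -0.08 to -0.39.

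**Figure D4:**
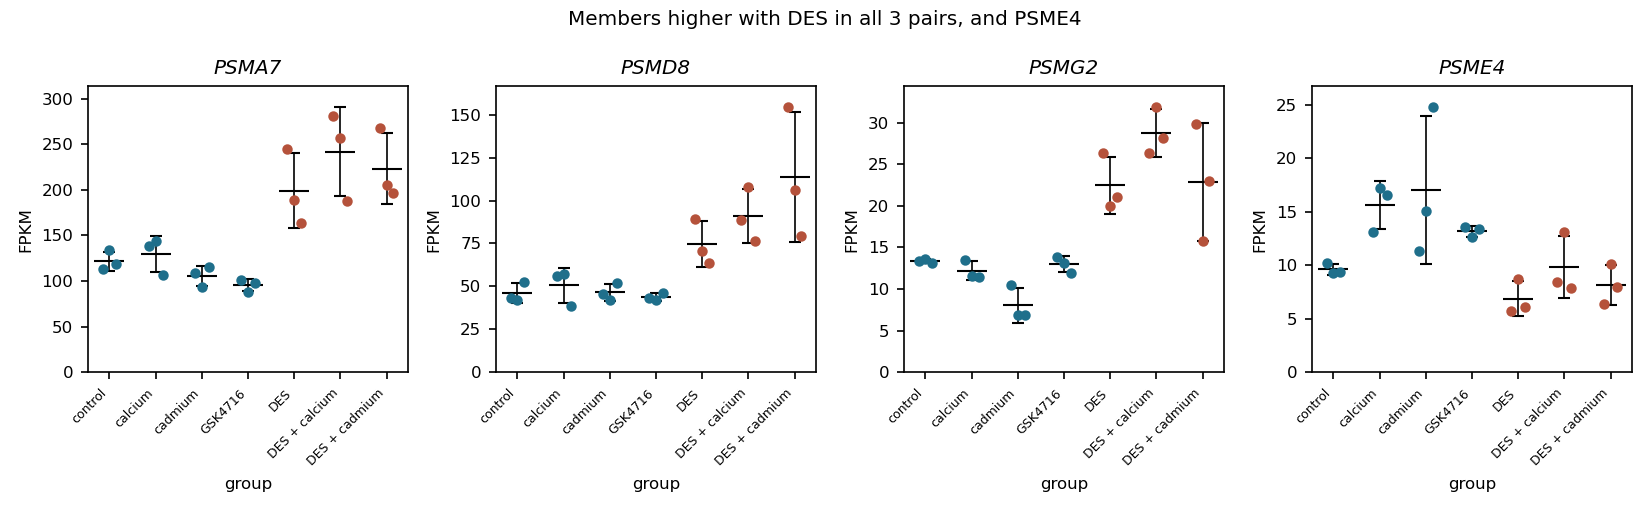
FPKM on the y axis, from 0, by group on the x axis for PSMA7, PSMD8 and PSMG2, which rose with DES in all 3 pairs of groups, and for PSME4. Points are libraries (blue without and red with DES), and black lines the mean and SD. In the first 3 panels every red point lies above the blue points of its matching group, while for PSME4 the blue points of calcium, cadmium and GSK4716 lie above the control.

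Of the 3 inducible catalytic subunits 1 rose with DES, while 16.7% of all genes did. In DES with calcium against calcium 1 fell, while 16.5% of all genes did. PSMB8 and PSMB9 replace PSMB5 and PSMB6 in the immunoproteasome, and PSMB10 replaces PSMB7. PSMB8 had 5.75, 2.99 and 1.15 FPKM in the control and 9.90, 7.79 and 7.81 FPKM with calcium, a difference of 1.60 ± 0.54 with no overlap that did not pass (adjusted p = 0.145). PSMB9 had 0.866, 0.755 and 0.118 FPKM in the control and 2.13, 1.49 and 1.37 FPKM with calcium, a difference of 1.62 ± 0.61 (adjusted p = 0.180). The control libraries themselves spread over 5.75 to 1.15 FPKM for PSMB8, and replicate 3 was the lowest for both genes. PSMB10 overlapped between these groups, with 4.93, 2.66 and 3.63 FPKM in control and 7.49, 4.38 and 4.03 FPKM in calcium (adjusted p = 0.442).

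With DES alone PSMB10 rose to 10.3, 7.90 and 8.11 FPKM, above every control library, by 1.24 ± 0.25 (adjusted p = 0.0125). PSMB8 had 4.23, 3.71 and 4.49 FPKM and PSMB9 1.47, 1.23 and 1.16 FPKM with DES, and neither passed. In DES with calcium PSMB8 was at 4.27, 3.45 and 5.02 FPKM, below every calcium library, and fell by 0.99 on the log2 scale (SE 0.20, adjusted p = 0.0126). PSMB9 was at 3.03, 1.38 and 2.07 FPKM and PSMB10 at 5.72, 5.16 and 4.31 FPKM there, both overlapping calcium. In DES with cadmium the 3 genes were at 9.48, 5.94 and 5.51 FPKM (PSMB8), 3.12, 0.775 and 2.03 FPKM (PSMB9) and 9.36, 6.89 and 4.73 FPKM (PSMB10). Without DES, cadmium left them at 4.16, 3.13 and 1.62 FPKM, 1.15, 0.736 and 0.0396 FPKM and 8.90, 6.66 and 2.96 FPKM, all overlapping the control.

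With GSK4716 the inducible genes spread widely between libraries. PSMB8 had 3.51, 7.76 and 0.938 FPKM, PSMB9 0.294, 1.16 and 0.0273 FPKM and PSMB10 3.48, 7.27 and 1.99 FPKM, with replicate 2 highest in each. For PSMB9 the lowest values rest on 2 fragments, in cadmium replicate 3 and in GSK4716 replicate 3. Summed over the 6 catalytic genes, the inducible ones made up 4.91% ± 2.47 (SD, n = 3) of FPKM in the control libraries, 8.72% ± 1.35 in calcium, 6.36% ± 2.31 in cadmium and 5.91% ± 4.33 in GSK4716. The same share reached 7.20% ± 1.73 after DES alone, 4.64% ± 0.986 when calcium followed DES and 5.98% ± 0.483 when cadmium did.

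**Figure D5:**
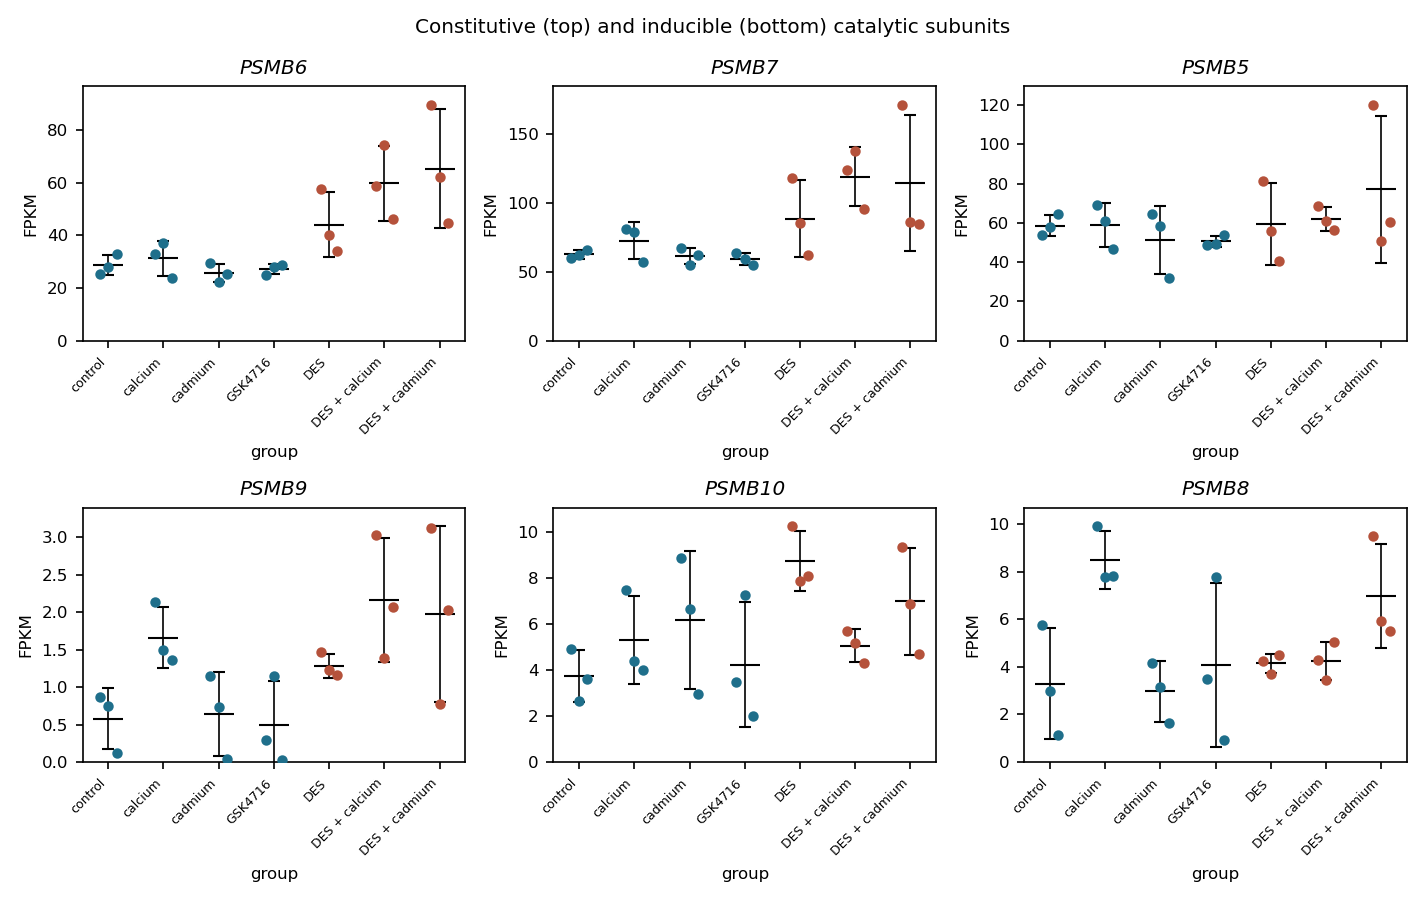
FPKM on the y axis, from 0, by group on the x axis for the constitutive catalytic genes PSMB6, PSMB7 and PSMB5 (top) and for the inducible genes PSMB9, PSMB10 and PSMB8 that replace them (bottom). Points are libraries (blue without and red with DES), and black lines the mean and SD. PSMB8 has its highest mean with calcium, 8.50 FPKM, and PSMB10 with DES, 8.75 FPKM.

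Each metal and GSK4716 were also compared with the control. With calcium, 1 of the 46 genes rose (2.17%, against 4.60% of all genes) and none fell, while 2.53% of all genes did. The riser was PSME4, with 10.2, 9.32 and 9.35 FPKM in the control and 13.1, 17.2 and 16.6 FPKM with calcium, a difference of 0.68 ± 0.14 (adjusted p = 0.0431). The call was lost without calcium replicate 2 or 3, without any of the control libraries, with the replicate block, with all 7 groups in a single fit, without a filter on low values, and in limma-voom and scaling by total fragments, where PSMD5 was called lower. PSME4 was also higher than every control library with cadmium, at 11.3, 15.1 and 24.8 FPKM, and with GSK4716, at 13.5, 12.6 and 13.4 FPKM, where neither difference passed (adjusted p = 0.171 and adjusted p = 0.142). These comparisons share the control libraries. The lowest differences with calcium were those of PSMC3IP, with 1.39, 2.06 and 1.18 FPKM in the control and 0.644, 1.02 and 0.555 FPKM with calcium (adjusted p = 0.142), and PSMD5, with 32.3, 28.1 and 30.01 FPKM in control and 24.8, 19.8 and 20.5 FPKM in calcium (adjusted p = 0.0808). The median difference over the members was 0.10, and it was -0.01 with scaling by total fragments, which moved the median of all genes from -0.01 to -0.13.

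With cadmium 0 of the 46 genes passed the test in limma, while 0.150% of all genes did. The median difference was -0.09 over the members, with 31 of 46 below 0, and 0.04 over all genes. At an unadjusted p of 0.05, 7 members (15.2%) and 25.9% of all genes passed, and limma-voom called 0 members and 3.10% of all genes. The lowest differences were those of PSMC3, an ATPase, with 48.6, 65.5 and 43.8 FPKM in the control and 44.9, 24.5 and 13.5 FPKM with cadmium (-1.08 ± 0.44, adjusted p = 0.188), and of PSMB3, with 82.6, 85.2 and 80.1 FPKM in control and 73.2, 48.7 and 21.6 FPKM in cadmium (-0.96 ± 0.43, adjusted p = 0.217). The cadmium libraries of PSMB3 all lay below the control and those of PSMC3 overlapped it, and replicate 3 was the lowest for both. Without cadmium replicate 1, PSMC3, PSMD3, PSME1 and PSMG2 were called lower.

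With GSK4716 limma called 0 of the 46 genes and 0% of all genes, and limma-voom called 0 members and 0.334% of all genes. At an unadjusted p of 0.05, 10 members (21.7%) passed, against 16.4% of all genes. Of the members 2.17% were higher and 19.6% lower at this p, and of all genes 7.68% and 8.69%. The median difference was -0.13 over the members, with 37 of 46 below 0, and 0 over all genes. PSMC3IP had 0.681, 0.525 and 0.701 FPKM (-1.13 ± 0.26, adjusted p = 0.172) and PSMC3 34.4, 27.7 and 33.8 FPKM (-0.70 ± 0.18, adjusted p = 0.185), both below every control library. Of the abundant members, PSMA7 had 101, 88.3 and 98.1 FPKM, PSMC5 65.5, 62.98 and 63.4 FPKM and PSMB7 63.8, 59.2 and 55.1 FPKM with GSK4716, and none passed. PSMD9 had the second highest difference after PSME4, with 1.36, 0.847 and 1.03 FPKM against 0.896, 0.912 and 0.752 FPKM in the control, and overlapped it.

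When a metal was added to DES, no proteasome gene passed the test. For DES with calcium against DES, limma called 0 of 46 genes and 0.136% of all genes, limma-voom called 0 of both, and 3 members (6.52%) passed an unadjusted p of 0.05, against 13.2% of all genes. PSMB10 had the lowest difference, at 5.72, 5.16 and 4.31 FPKM against 10.3, 7.90 and 8.11 FPKM with DES (-0.78 ± 0.19, adjusted p = 0.217), and PSMA6 at 2.39, 2.02 and 1.64 against 2.69, 4.22 and 2.99 FPKM (-0.67 ± 0.27, adjusted p = 0.368). Both lay below every DES library. The highest differences were those of PSMA1, with 5.54, 3.90 and 3.75 FPKM with DES and 5.28, 8.89 and 7.12 FPKM with DES and calcium, and of PSMB9, and neither passed (adjusted p = 0.362 and adjusted p = 0.453).

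For DES with cadmium against DES, limma called 0 of 46 genes and 0.266% of all genes, limma-voom called 0 of both, and 2 members (4.35%) passed an unadjusted p of 0.05, against 10.4% of all genes. PSMA6 had the lowest difference, with 1.95, 1.47 and 1.21 FPKM in DES with cadmium (-1.05 ± 0.33, adjusted p = 0.337), followed by PSMC3IP, with 2.05, 0.252 and 1.56 FPKM against 1.41, 1.60 and 2.93 FPKM with DES (adjusted p = 0.737). PSMB8 and PSMD8 had the highest differences (adjusted p = 0.466 and adjusted p = 0.591). Both comparisons share the DES libraries.

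Whether a metal acted differently with DES than without it was tested as an interaction. For calcium limma called 0 of the 46 genes and 3.63% of all genes, limma-voom called 0 members and 3.77% of all genes, and 7 members (15.2%) passed an unadjusted p of 0.05, against 19.9% of all genes. PSMB8 had the lowest interaction, -1.57 ± 0.60 (log2, SE, adjusted p = 0.171), followed by PSMB10 at -1.26 ± 0.38 (adjusted p = 0.0935), which passed with the replicate block. For cadmium limma called 0 of the 46 genes and 1.18% of all genes, limma-voom called 0 members and 0.293% of all genes, and 4 members (8.70%) passed an unadjusted p of 0.05, against 18.5% of all genes. With all 7 groups in a single fit PSMD6 passed for cadmium, in the lower direction. The DES difference with calcium was not compared with that with cadmium.

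Genes that work with the proteasome were read from fixed lists. The shares of all genes tested that rose and fell were 16.7% and 12.9% with DES alone, 18.5% and 16.5% in DES with calcium against calcium, 4.76% and 5.13% in DES with cadmium against cadmium, and 4.60% and 2.53% with calcium. Of the 11 ubiquitin and shuttle genes reported here, which are part of a longer list, 3 rose and 1 fell with DES alone, 6 rose and 1 fell in DES with calcium against calcium, and 3 rose in DES with cadmium against cadmium. The largest rise among these was that of UBB, a gene that encodes ubiquitin. It had 146, 160 and 128 FPKM in the control and 1073, 649 and 557 FPKM with DES, a difference of 2.34 ± 0.28 (adjusted p = 0.00242). No DES library of UBB overlapped the control, and the gene also rose with DES in the presence of calcium, by 2.41, and of cadmium, by 2.76. RPS27A, which encodes ubiquitin fused to a ribosomal protein, rose in both of these pairs, by 1.09 and 1.37. RAD23B and UBQLN1, which carry ubiquitinated proteins to the proteasome, rose with DES alone, by 0.72 and 0.78, and NPLOC4, a cofactor of the segregase VCP, fell by 0.99. With calcium against control RAD23B rose by 0.47. SQSTM1, an autophagy receptor for ubiquitinated cargo, had 50.3, 32.1 and 99.5 FPKM in the control and 76.3, 85.04 and 67.1 FPKM with DES and passed in none of the comparisons.

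Of 12 proteasome partners whose symbols lie outside the rule, 3 rose and 1 fell with DES alone (against 16.7% and 12.9% of all genes), 6 rose and 2 fell in DES with calcium against calcium (against 18.5% and 16.5% of all genes), and none passed in DES with cadmium against cadmium. POMP, the maturation factor of the core particle, had 70.9, 73.2 and 71.9 FPKM in the control and 140, 122 and 91.3 FPKM with DES, a difference of 0.69 ± 0.19 (adjusted p = 0.0354), and it rose by 0.99 in DES with calcium against calcium. ZFAND2A, a stress-inducible protein that binds the proteasome, rose by 3.01 ± 0.30 with DES alone and by 2.85 in DES with calcium against calcium. TXNL1, a thioredoxin-like protein of the cap, rose by 0.71 and 1.07, and UBE3C, a ubiquitin ligase bound to the cap, fell by 1.06 and 0.90 on the log2 scale. In the second of these pairs PAAF1, SEM1 and UCHL5 also rose, and AKIRIN2 fell. The ubiquitin receptor ADRM1 had 35.9, 38.8 and 33.5 FPKM in the control and 54.1, 51.1 and 39.00 FPKM with DES and did not pass (adjusted p = 0.117).

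Of 9 regulators of proteasome gene expression, 3 rose with DES alone (against 16.7% of all genes), 3 rose with calcium (against 4.60% of all genes), 2 fell in DES with calcium against calcium (against 16.5% of all genes) and 1 fell in DES with cadmium against cadmium (against 5.13% of all genes). NFE2L1 had 30.1, 31.4 and 40.9 FPKM in the control and 48.04, 52.6 and 49.9 FPKM with DES, without overlap, a difference of 0.57 ± 0.16 (adjusted p = 0.0393). It was not higher in the other pairs, with 40.95, 30.9 and 30.7 FPKM with calcium and 28.3, 27.4 and 22.3 FPKM with DES and calcium, all below calcium, and with overlap in the cadmium pair. NFE2L2, a related factor of the oxidative stress response, had 13.8, 15.2 and 15.02 FPKM in the control and 6.78, 14.7 and 10.1 FPKM with DES and did not pass. MAFF and MAFK, small partners of both factors on DNA, rose with DES alone, by 3.83 and 0.99, and with calcium, by 3.98 and 1.29, where MAFG rose by 0.78. In DES with calcium against calcium MAFK fell by 0.87 and VCP by 0.45, and in DES with cadmium against cadmium MAFG fell by 1.21.

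Of the 7 interferon and antigen processing genes reported here, also part of a longer list, 4 rose with calcium (against 4.60% of all genes), 3 rose with DES alone (against 16.7% of all genes), 4 fell in DES with calcium against calcium (against 16.5% of all genes) and none passed in DES with cadmium against cadmium. TAP1, the peptide transporter subunit, had 6.85, 5.24 and 3.61 FPKM in the control, 20.1, 13.4 and 13.4 FPKM with calcium and 3.92, 3.78 and 4.42 FPKM with DES and calcium. It rose by 1.58 ± 0.28 with calcium (adjusted p = 0.0306) and fell by 1.90 on the log2 scale in DES with calcium against calcium. IRF1, a transcription factor induced by interferon, had 0.484, 0.395 and 0.388 FPKM in the control, 2.84, 2.54 and 1.52 FPKM with calcium and 2.89, 3.51 and 4.04 FPKM with DES, and rose in both by 2.16 and 2.77. NLRC5, an activator of class I antigen presentation genes, rose by 3.34 with calcium and by 1.73 with DES, and B2M, the light chain of class I molecules, by 1.59 and 1.60. In DES with calcium against calcium NLRC5 fell by 2.35, TAP2 by 1.64 and TAPBP by 1.39 on the log2 scale.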

How the data were processed

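Poly-A RNA-seq values of 21 libraries (7 groups of 3) were used. The deposited values are FPKM, which the authors made, per the labels' processing notes, with HISAT2 2.0.5, featureCounts 1.5.0-p3 and GRCh38.p14. All nonzero values were whole fragments (100% within 0.01), so fragments were recovered and used for depth and for limma-voom. Differences were tested with limma 3.58.1 in R 4.3.3 (lmFit, eBayes with trend) on log2(FPKM + 0.1) for 14686 genes with a mean of at least 0.5 FPKM, using the libraries of the groups compared, two-sided, with Benjamini-Hochberg adjustment over all genes at 0.05. The pseudocount makes fold changes of low genes too small. An exact permutation test of 3 against 3 cannot go below 0.1.

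The members, lists and tests were chosen with earlier results of these data known. Values per library are given for the catalytic genes, the highest gene of each role, PSMC3IP and, in each comparison of a pair of groups, the 2 members with the largest difference in each direction, and some further called genes were chosen after their values were seen. Same-numbered libraries deviated together in the comparisons of DES with a metal against DES (every correlation above 0.1), where the replicate block changed no call. In each other pair of groups at least 1 correlation was below 0.1. All were above 0 in cadmium against control (0.05, 0.07 and 0.15) and in DES with calcium against calcium (0.10, 0.06 and 0.16). In the latter the block gave 23 members higher and 4 lower. The code was tested on simulated data. Motifs and figures were made with Python 3.11.15, pandas 2.3.3 and matplotlib 3.10.9. Alternatives are given in the closing section. Some genes of the fixed lists are not reported here, and the counts of those lists are over the genes reported.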

Additional observations from a re-analysis of the deposited data

Results flagged for a closer look

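Genes of the fixed lists whose response to a metal differed with and without DES, by the interaction in limma with p-values adjusted over all genes, are given here as log2 differences (effect of the metal with DES minus its effect without DES). No proteasome subunit gene was among them. For calcium the interaction was -4.08 for NLRC5, -3.05 for IRF1 and -1.69 for TAP1, which act in antigen presentation, -2.48 for MAFF and -1.86 for MAFK, the small partners of NFE2L1 and NFE2L2, and -1.48 for AKIRIN2, which carries proteasomes into the nucleus. For cadmium it was -3.45 for IRF1.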

How the results depend on the processing

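Counts of called members moved by over 1.5 times as follows. With all 7 groups in a single fit, calcium gave 0, cadmium 1, DES with cadmium against DES 1, DES with cadmium against cadmium 26 and the interaction of cadmium with DES 1. Without a filter on low values, calcium gave 0, DES 3, DES with calcium against calcium 3 and DES with cadmium against cadmium 0. Quantile normalization gave 2 for calcium and 2 for DES with cadmium against cadmium, limma-voom gave 2 and scaling by total fragments 1 for the latter. With the replicate number as a block, where the numbers were not shown to pair the libraries, calcium gave 0, DES with cadmium against cadmium 0 and the interaction of calcium with DES 1. It changed no call for a metal added to DES. Leaving out each library in turn gave 6 to 21 calls for DES, 11 to 26 for DES with calcium against calcium, 0 to 1 for DES with cadmium against cadmium, 0 to 1 for calcium, 0 to 4 for cadmium, 0 to 1 for the interaction of calcium with DES and 0 to 0 for GSK4716, both metals added to DES and the interaction of cadmium with DES. The cause was not tested. The members' median under quantile normalization, scaling by total fragments and limma-voom was 0.20, 0.33 and 0.29 with DES against control, 0.35, 0.38 and 0.39 in DES with calcium against calcium, and 0.32, 0.35 and 0.34 in DES with cadmium against cadmium. No called gene turned its direction, but PSMD2, near 0 with DES, was called lower under quantile normalization, and the calcium median turned from 0.10 to -0.01 in scaling by total fragments and in limma-voom and to -0.00011 under quantile normalization. The median of DES with cadmium against DES turned from 0.16 to -0.06 in that scaling and in limma-voom, to -0.0094 under quantile normalization, to -0.03 without DES replicate 3 and to -0.14 without DES with cadmium replicate 1, and that of the interaction of calcium with DES from 0.15 to -0.01 without DES replicate 3. Among alternative values of single genes that were called or had the 2 largest differences in a direction, 469 were no longer called, 14 were newly called and 1608 kept their side of the threshold. Genes outside that set were not counted. The DES with calcium or cadmium comparisons against the metal alone, and their alternatives, were chosen after seeing the data. Depth limits PSMB9, which rests on 2 fragments in its lowest libraries.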

Other observations

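PSMA2, the alpha ring gene below the minimum, had a mean of 0.597 FPKM in control libraries, 0.565 FPKM in calcium, 0.612 FPKM in cadmium and 0.605 FPKM in GSK4716. After DES it averaged 1.20 FPKM, or 1.04 FPKM when calcium followed and 0.462 FPKM when cadmium did. By the annotation 29.7% of its exon bases are shared with other genes.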
